A study of Nicotiana tabacum with 39 samples.

Results

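The transcripts described here are 198 of the 53725 identifiers in the deposited count tables of de-etiolating tobacco leaves, chosen because their mean level was highest 2 h after dark-treated leaves returned to light. Members were chosen by their mean CPM in each group, where CPM is the standard depth-scaled unit of RNA-seq, a count divided by the library total and multiplied by a constant. A member had a mean of at least 5 CPM at 2 h. That mean was also at least 3 times the mean in untreated leaves, at the end of darkness and at 16 h of light, with 0.1 CPM added to each mean. The rule took up to 200 transcripts and 198 met it, which is 0.369% of all identifiers. Of the 4248 identifiers whose highest mean was at 2 h, 2496 reached 5 CPM and 198 of those also met the 3-fold limits. Because the rule was built on these mean levels, the height of the 2 h level over those 3 groups is given below as a description and carries no test.

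The plants were Nicotiana tabacum, the allotetraploid cultivated tobacco, grown on soil under 16 h days and then placed whole in a long dark treatment of unstated length. Leaves were harvested at the end of darkness (0 min), after 5, 10 and 30 min and after 1, 2, 4, 8, 16, 40, 64 and 112 h of returned light, and, as a control, from plants with no dark treatment. Each of the 13 groups had 3 libraries of polyA RNA, and each library pooled the middle parts of 2 young leaves from each of 3 plants. All groups share the species and growth regime, and the labels name no cultivar or genetic change. None of the groups used here was held in the dark for the whole course, so light and elapsed time cannot be told apart.

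De-etiolation is the change by which pale leaf tissue that has been kept dark turns green, as etioplasts become chloroplasts. Light is perceived by photoreceptors such as phytochromes and cryptochromes, which end the breakdown of transcription factors that promote greening. Many light-responsive transcripts in plants are known to be induced only briefly, before the photosynthetic apparatus has been built. The tables name each transcript by an NCBI GI number alone, and none of these could be paired with a gene (0 of 53725 matched the 79372 genes of the ASM71507v2 gene table), so no gene name, function, chromosome or sequence is given. Only 4 members are printed by identifier.

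Library totals ran from 15844109 to 37269515 counts, and the 3 libraries at 2 h held 18928595, 18003739 and 37269515. A library's closest match was in another group for 20 of the 39 libraries, 9 of them from 0, 5 and 10 min. Each of those 9 was closest to the same-numbered library of another of these times. At 4 and 8 h a pair of libraries stood apart from the others of their own label, and this touches every value on the decline. The library labelled 4 h replicate 1 was closer to the other 8 h libraries (Pearson r 0.983 to 0.992) than to the other 4 h libraries (0.964 to 0.975), and the library labelled 8 h replicate 2 was closer to the other 4 h libraries (0.976 to 0.989) than to the other 8 h libraries (0.964 to 0.972). These correlations are over log2 CPM of 35026 transcripts, which share library depth and are not independent. Whether these 2 labels were exchanged was not tested, and an exchange would change what every 4 h and 8 h value means. Both libraries were kept under their labels, and the main 4 h and 8 h values are also given without them, a choice made after the data were seen.

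The rule fixed a low start, a peak at 2 h and a low level at 16 h, and the levels between and after them were left free. In untreated leaves the member at the middle of the range stood at 18.5% of its own 2 h level, and at the end of darkness at 12.8%. The medians were 13.3% after 5 min, 13.5% after 10 min, 19.1% after 30 min and 51.2% after 1 h. Past the peak they were 37.1% after 4 h, 29.6% after 8 h and 18.6% after 16 h (medians over 198 members of group means). Without 4 h replicate 1 and 8 h replicate 2 the medians were 42.35% after 4 h and 21.4% after 8 h. From 40 to 112 h these medians lay between 17.0% and 20.1%, close to that of untreated leaves. The 5 and 10 min medians lay within 1 percentage point of the end of darkness.

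**Figure D1:**
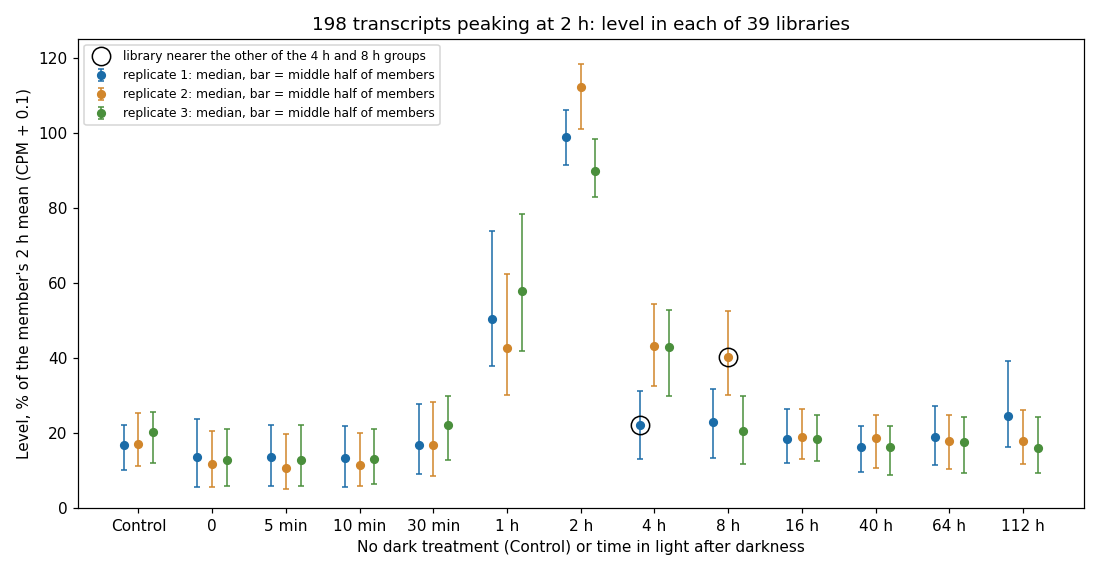
Level of the 198 members in each of the 39 libraries (x axis: control or time in light; y axis: percent of each member's 2 h mean, CPM with 0.1 added). Points are medians over members, bars span the middle 50% of members, colours are replicate numbers, and open circles mark 4 h replicate 1 at 22.0% and 8 h replicate 2 at 40.3%.

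The summed level shows the same course, and the members took up little of each library outside it. They held 0.592 ± 0.011% of all counts in untreated leaves, 0.396 ± 0.030% at the end of darkness, 0.709 ± 0.061% at 30 min, 1.87 ± 0.21% at 1 h and 3.04 ± 0.10% at 2 h (SD, n = 3 libraries). Afterwards they held 1.32 ± 0.56% at 4 h, 0.986 ± 0.458% at 8 h and 0.560 ± 0.013% at 16 h. Without the 2 libraries that stand apart, the remaining ones held 1.63% and 1.66% at 4 h and 0.696% and 0.747% at 8 h. The sum was uneven: 11 members made up 50% of it at 2 h, and the most abundant alone 9.97%. CPM are not corrected for transcript length, so they do not rank members by the number of molecules. In leaf pieces, fewer cells that express a transcript and less of it per cell cannot be told apart.

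At 2 h the single libraries held 3.09%, 3.11% and 2.93% of their counts in members, and the next highest library, at 1 h, held 2.09%. The coefficient of variation among the 3 libraries at 2 h had a median of 16.2% over members and ran from 3.06% to 69.3%. In 124 members all 3 libraries at 2 h lay above all 36 others. The remaining 74 overlapped with some other library, most often at 1 h, where 63 members were not separated from 2 h, followed by 112 h with 12 and by 4 h and 8 h with 9 each. Without the 2 libraries that stand apart these last counts were 9 at 4 h and 0 at 8 h, and 126 members had all 2 h libraries above the other 34. Within a replicate number, 185, 187 and 166 members were highest at 2 h in replicates 1, 2 and 3. Members were chosen for their highest mean at 2 h, and these counts were not made over all transcripts, so they are a description.

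Whether the pattern recurs in libraries that did not choose the transcripts was described by applying the rule to 2 replicate numbers and reading the third. Between 180 and 200 transcripts were chosen each time. In the replicate left aside 85.7 ± 8.22% of them were highest at 2 h, against 10.6 ± 2.88% of all transcripts with at least 5 CPM at 2 h in the choosing libraries (SD, n = 3 rotations). The 3-fold limits were met again by 82.6 ± 10.2% of the chosen transcripts, against 1.17 ± 0.23% of those transcripts. Their median ratio of 2 h to the highest of the 3 limiting groups was 2.09 ± 0.15 on the log2 scale, against -0.31 ± 0.11. The transcripts compared with were chosen for their level at 2 h alone and not for a peak there. The 3 rotations share libraries and are not independent.

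Members ranged from sharply transient to barely past the limit. The ratio of the 2 h level to the highest limiting group reached 48.3 and had a median of 4.31, with 26 members at 10 or more and 82 under 4. The lowest ratios inside were 3.02 and 3.02, and the highest outside were 2.99 and 2.96. The lowest 2 h mean inside was 5.16 CPM, and 36 transcripts met every limit except the level, the highest of them at 4.99 CPM.

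The 2 members printed for their ratio are 698569857 and 698569853, the highest among those whose 2 h libraries lay above all others, and they occupy neighbouring rows of the tables. Reads could be shared between near-identical sequences. Transcript 698569857 stood at 1.18, 1.18 and 1.24 CPM in untreated leaves, at 4.33, 4.11 and 2.79 CPM at the end of darkness, and at 7.17, 7.57 and 10.8 CPM at 30 min. It reached 82.7, 67.1 and 76.2 CPM at 1 h and 149.5, 213.4 and 171.1 CPM at 2 h. All libraries from 1 and 2 h lay far above those of every other time, and 1 h and 2 h did not overlap. At 4 h it stood at 0.807, 14.1 and 12.95 CPM, at 8 h at 0.585, 10.7 and 0.405 CPM, and at 16 h at a mean of 0.342 CPM. At 4 h and at 8 h 1 library stood apart from the other 2, and each time it was the one named above. From 40 h onward no library exceeded 0.365 CPM, below all 3 untreated libraries.

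The rise between 30 min and 1 h of 698569857 was 3.23 on the log2 scale (SE 0.60, adjusted p = 0.000349, edgeR quasi-likelihood test with Benjamini-Hochberg adjustment, higher in 3 of 3 libraries). The rule fixed a rise from darkness to 2 h in every member, and 698569857 was printed for its high ratio. Such a step therefore shows when the rise took place and not that there was a rise. The difference of 698569857 between the end of darkness and untreated leaves was 1.41 (SE 0.71, adjusted p = 0.0979, edgeR). Transcript 698569853 had the same course, with 160.0, 225.8 and 186.7 CPM at 2 h. Its log2 difference of 1 h over 30 min was 3.33 (SE 0.64, adjusted p = 0.000537, edgeR).

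**Figure D2:**
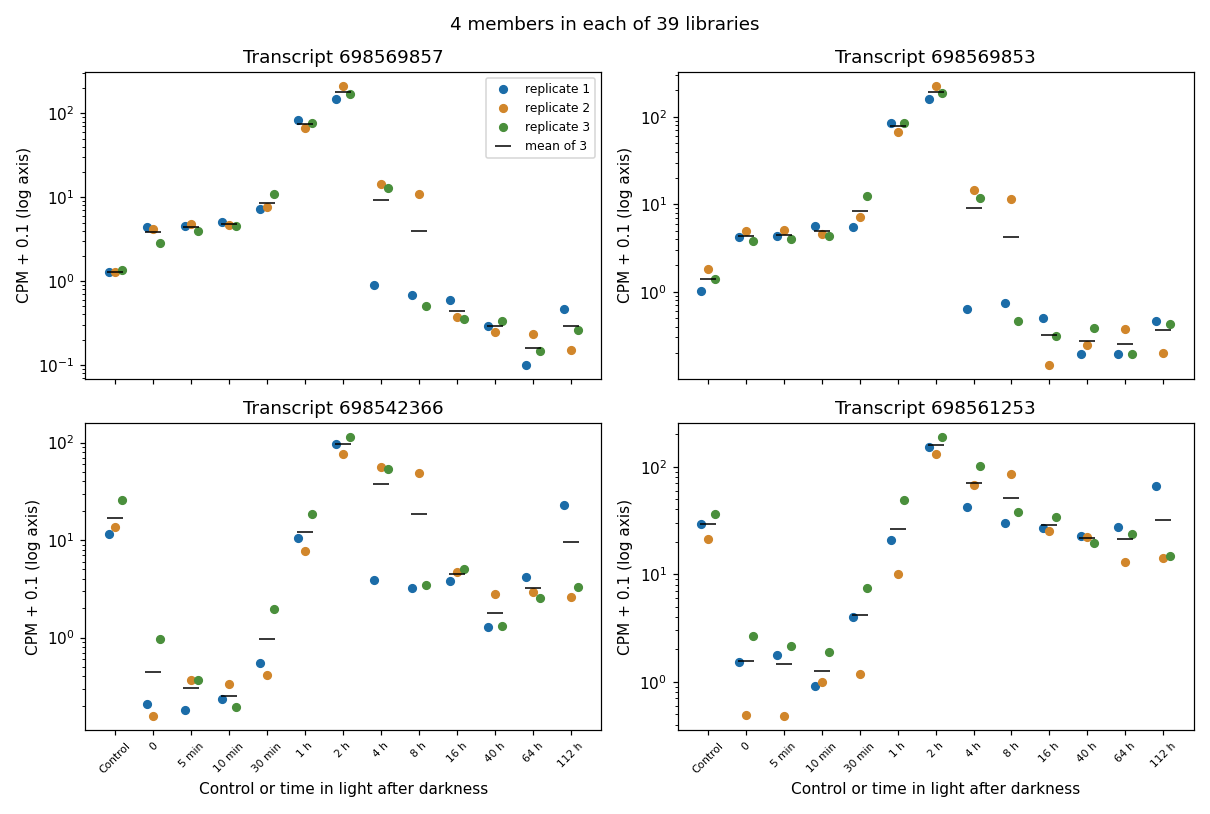
CPM with 0.1 added (log axis) of 4 members in each of the 39 libraries, in control or by time in light; dots are libraries coloured by replicate number and dashes are means of 3. In the upper panels 2 h stands at 149.5 to 225.8 CPM, and in the lower panels the end of darkness stands below control.

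The comparison of the end of darkness with untreated leaves asks how these transcripts stood before light returned. The rule capped both groups but did not set their order. Of the 198 members, all of which passed the filter on low counts, 91 had fallen and 19 had risen at the end of darkness, and 88 were not called (edgeR quasi-likelihood test, adjusted p below 0.05). That is 46.0% of members lower and 9.60% higher, against 24% lower and 25.6% higher over all 42181 transcripts tested. The median log2 difference of members was -0.61, against 0.03 for all transcripts. Among called members the falls had a median of -1.41, and the rises had a median of 1.19 and reached 3.79.

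Scaling by library size alone moved the median of all transcripts to 0.25 and that of members to -0.39, with 76 members lower and 24 higher. Under that scaling 15.8% of all transcripts were lower and 34.1% higher, so that 68.4% of all calls were higher, in place of 51.6%. No hour of day is stated for the control harvest, so darkness and time of day cannot be told apart in this comparison.

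Members were set apart by their call at the end of darkness, so their levels there and in untreated leaves follow from that split. At the end of darkness the 91 stood at a median of 8.46% of their 2 h level, against 20.4% in untreated leaves, and at 30 min and 1 h they stood at 13.6% and 47.2%. The 19 that had risen stood at 22.9% at the end of darkness, against 10.6% in untreated leaves. At 30 min they stood at 28.7%. At 8 h the 19 stood at 43.5% of their 2 h level and the 91 at 27.1%, or at 30.3% and 21.0% without 8 h replicate 2. No difference between these sets was tested.

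Transcripts 698542366 and 698561253 were the largest called falls at the end of darkness among members with at least 10 CPM in untreated leaves. This choice was made after their values were seen. Transcript 698542366 stood at 0.107, 0.0563 and 0.862 CPM at the end of darkness, against 11.5, 13.5 and 25.5 CPM in untreated leaves (log2 -5.80, SE 1.13, adjusted p = 8.17e-05, edgeR). These are counts of 2, 1 and 17 at the end of darkness, and the groups did not overlap. It then stood at 10.4, 7.66 and 18.3 CPM at 1 h and at 97.4, 75.8 and 113.7 CPM at 2 h. All 3 libraries at 2 h lay above the untreated leaves, as they did in all 198 members, which the rule's 3-fold limit favours. Its libraries at 1 h overlapped with the untreated ones.

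The step of 698542366 from 30 min to 1 h was 3.79 (SE 0.96, adjusted p = 0.00876, edgeR). That call was lost without replicate 3 of all groups (adjusted p = 0.0875, edgeR) and without replicate 1 or 2 at 30 min (adjusted p = 0.0557 and 0.0524, edgeR). Over all 14 alternatives its log2 value ran from 3.39 to 4.99. Transcript 698561253 stood at 1.44, 0.394 and 2.59 CPM at the end of darkness, against 29.3, 21.1 and 36.4 CPM in untreated leaves (log2 -4.52, SE 0.67, adjusted p = 1.64e-06, edgeR). Its libraries at 2 h held 152.7, 132.4 and 188.3 CPM, above all others, and at 16 h it was back among the untreated values with 27.0, 25.1 and 34.2 CPM.

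The early harvests ask when the rise began. A rise between the end of darkness and 2 h was fixed by the rule, so the steps within that time show its timing and not its existence. At 30 min 30 members had risen over 10 min and none had fallen (0 lower), against 2.83% of all transcripts higher and 3.32% lower (edgeR, adjusted p below 0.05). The 30 rises had a median of 1.32 on the log2 scale and ran from 0.54 to 2.48, and 75 members were at an unadjusted p below 0.05, as were 18.9% of all transcripts. The other 168 were not called at this step, and the median difference over all 198 was 0.53, with 17 members below 0.

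The count at 30 min moved by over 1.5 times with single libraries left out. It was 18 without replicate 1 at 10 min, where 1.62% of all transcripts were higher, and 19 without replicate 3 at 10 min, with 1.82%. Leaving replicate 1 out of all groups gave 15, with 1.15% of all transcripts, and leaving replicate 3 out gave 10, with 0.768%. The count over all transcripts thus fell along with that of members.

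By 1 h most members had risen. Over the step from 30 min 162 members had risen and none had fallen (0 lower), against 5.2% of all transcripts higher and 4.4% lower (edgeR, adjusted p below 0.05). All 198 had a log2 difference above 0, the median was 1.58, and the 162 rises ran from 0.56 to 4.83. The difference was at least 2-fold in 152. DESeq2 called 164, against 4.42% of all 53725 identifiers higher. Leaving out single libraries or whole replicate numbers gave between 128 and 163, where 1.62% to 4.45% of all transcripts were higher. With library-size scaling 160 members were higher, against 3.59% of all transcripts, and 40.5% of all calls were higher, in place of 54.2%.

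Members called at the earlier step were called at the later one about as often as the rest. Of the 30 that had risen at 30 min, 25 rose again by 1 h, against 137 of the other 168 and 5.2% of all transcripts. In all, 31 members were called in neither step. The 30 stood at 73.2% of their 2 h level at 1 h, against 49.6% for the other 168. Of the 36 members not called at the later step, 11 had risen at the end of darkness. That compares with 8 of the 162 called members, 19 of all 198 members and 25.6% of all transcripts. Over the 36 the median level was 23.4% of the 2 h level at the end of darkness and 35.7% at 30 min.

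**Figure D3:**
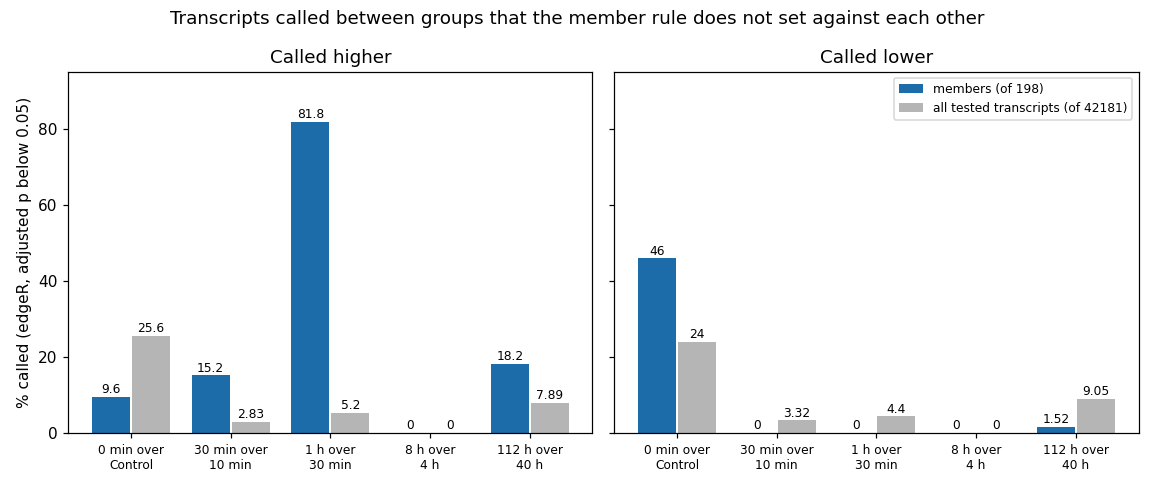
Percent of the 198 members (blue) and of all 42181 tested transcripts (grey) called higher or lower (edgeR, adjusted p below 0.05) in 5 comparisons, later group over earlier and end of darkness over control. The largest gap is at 1 h over 30 min, with 81.8% of members and 5.2% of all transcripts higher, and no bar stands at 8 h over 4 h.

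Peak width differed among members. At 1 h 105 members (53.0%) had at least 50% of their 2 h level, and at 4 h 33 (16.7%) did, with 18 in both sets. The other 78 were under 50% at both times. Without 4 h replicate 1 and 8 h replicate 2, 64 of the same members stood at 50% or more at 4 h and 60 were under 50% at both 1 h and 4 h. The level at 1 h relative to 2 h ran from 7.10% to 99.3% over members, and that at 4 h from 4.74% to 99.5%, or from 6.94% to 114.2% without 4 h replicate 1.

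**Figure D4:**
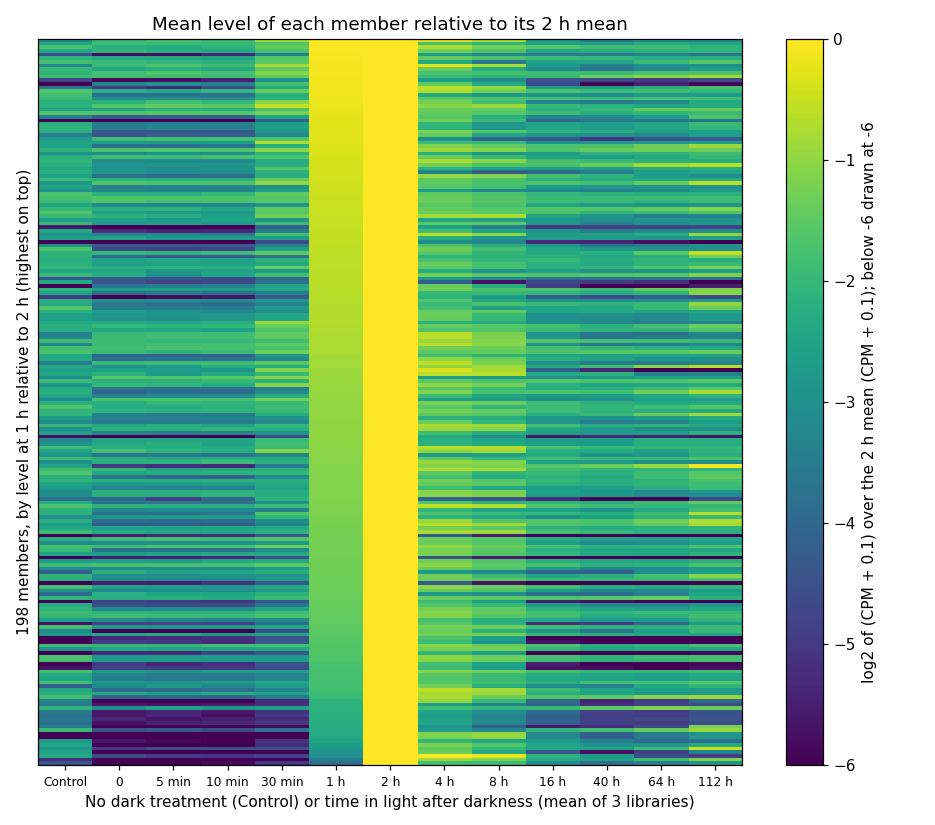
Log2 of each member's mean level (CPM with 0.1 added) relative to its 2 h mean, for the 198 members (rows, by level at 1 h) in control and at 12 times (columns, means of 3 libraries). The 2 h column is 0 by construction, and 1 h ranges from near 0 at the top to the lowest members, at 7.10% of 2 h, at the bottom.

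The decline could not be dated between 4 and 8 h from the libraries as labelled. The library medians relative to 2 h were 22.8%, 40.3% and 20.5% at 8 h, against 22.0%, 43.2% and 42.8% at 4 h. The groups overlap: 4 h replicate 1 stood with most of the 8 h libraries and 8 h replicate 2 with most of the 4 h ones. Of the 198 members, 183 were lowest of 3 in 4 h replicate 1, and 186 were highest of 3 in 8 h replicate 2. No transcript was called between 8 h and 4 h, neither among members (0 of 198) nor among all 42181 (0% higher and 0% lower, edgeR). At an unadjusted p below 0.05 there were 33 members and 1174 transcripts in all. DESeq2 called 0 members and 1 transcript in all.

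Without both libraries, 106 members were lower at 8 h than at 4 h and 0 higher, against 1.57% and 1.29% of 42659 transcripts (edgeR, 2 libraries against 2, with the spread estimated over all groups). The median log2 difference of members was then -0.95, in place of -0.36 with all libraries. For 698569857 the value became -4.77 (SE 0.32, adjusted p = 7.17e-11, edgeR), in place of -1.33 (SE 0.61, adjusted p = 1, edgeR). Leaving out 8 h replicate 2 alone gave 9 lower members, against 0.101% of all transcripts lower. Leaving out 4 h replicate 1 alone gave 4 lower members, against 0.110% of all transcripts lower. The libraries were left out after their values were seen and because they lay nearer the other group, which widens the difference by construction.

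By 16 h the medians over members stood near those of untreated leaves. The rule set an upper limit on both groups, so this nearness is a description of values it used. Single members could lie apart: 698569857 had a mean of 0.342 CPM at 16 h and 1.20 CPM in untreated leaves. The libraries at 16 h had medians of 18.4%, 18.8% and 18.5% of the 2 h level, against 16.8%, 17.1% and 20.3% in untreated leaves. The mean at 16 h was above that of untreated leaves in 118 of 198 members.

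The harvests at 40 and 112 h lie whole days apart and share a clock time, and the rule put no limit on either beyond the 2 h level. At 112 h 36 members had risen over 40 h and 3 had fallen, against 7.89% of all transcripts higher and 9.05% lower (edgeR, adjusted p below 0.05). The 36 rises had a median of 1.19 on the log2 scale and reached 4.29. The 3 falls ran from -2.11 to -0.91.

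Replicate 1 at 112 h stood above the other libraries of that time. Members held 0.800%, 0.553% and 0.552% of the counts in the 3 libraries at 112 h, against 0.488%, 0.513% and 0.474% at 40 h. In replicate 1 at 112 h 31 members stood at 50% or more of their 2 h level, and in the other libraries of that time 6 and 7. Without that library 11 members were higher at 112 h, with 2.82% of all transcripts higher. Without replicate 1 at 40 h there were 16, with 3.18% of all transcripts, and without replicate 3 at 40 h 21, with 3.62%. Without replicate 1 of all groups 1 member was higher, with 0.356% of all transcripts. Without replicate 2 of all groups there were 58, with 10.53%, and without replicate 3 of all groups 11, with 2.54%. In these settings the count over all transcripts moved in the same direction as that of members. It did not without replicate 2 at 112 h, with 45 members and 7.54% of all transcripts higher. Nor did it without replicate 3 at 112 h, with 37 members and 5.94%. With library-size scaling 31 members were higher and 3 lower, against 5.67% and 10.0% of all transcripts. Under that scaling 36.1% of all calls were higher, in place of 46.55%. The 3 falls became 1 without replicate 1 or replicate 3 at 112 h or without replicate 1 at 40 h. Over all transcripts 4.91%, 7.94% and 5.48% were lower in these settings.

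Some members stood high again late in the course. In 17 members the mean at 112 h was again at least 50% of the 2 h level, and 2 of the 198 had reached that at 64 h. The 17 were picked on this mean, so their levels at 112 h are a description. Their median level relative to 2 h was 85.2%, 44.7% and 46.4% in the 3 libraries at 112 h, against 22.7%, 38.6% and 26.3% at 40 h. Replicate 1 was the highest of the 3 libraries at 112 h in all 17 and held over 50% of the sum in 6. Of the 17, 13 were among the 36 members that rose from 40 to 112 h, an overlap that their high 112 h means favour. The end of darkness was called lower than untreated leaves in 12 of the 17, against 91 of all 198 members and 24% of all transcripts. In untreated leaves the 17 stood at 16.1%, 21.7% and 22.0% of their 2 h level.

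Moving the same rule to another peak time gave smaller sets, with 73 transcripts at 30 min, 107 at 1 h and 9 at 4 h. Without 4 h replicate 1 and 8 h replicate 2 these were 73, 103 and 20. The set at 2 h kept a median of 37.1% of its peak level at the next harvest (42.35% without 4 h replicate 1), against 33.7% for the set at 30 min and 71.6% for the set at 1 h, but the next harvest lies at a different interval for each. Of the set at 2 h 46.0% were called lower at the end of darkness than in untreated leaves (median log2 -0.61). The shares were 6.85% of the set at 30 min (-0.21) and 26.2% of the set at 1 h (-0.28). At 112 h over 40 h 18.2% of the set at 2 h had risen, against 37.0% at 30 min and 14.0% at 1 h. These are descriptions, and no difference between the sets was tested.

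Members often stood next to each other in the tables, so they cannot be counted as 198 independent measurements. They fell into 140 runs of adjacent rows, of which 106 held 1 member, 20 held 2 and 14 held 3 or more, up to 6. The 58 pairs of adjacent members had a median Pearson r of 0.98 across the 39 libraries (lowest 0.92), over libraries that share the same time course. The tables do not say which identifiers belong to 1 gene, and reads from near-identical copies could be shared between them.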

How the data were processed

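RNA-seq counts of 39 libraries in 13 groups of 3 were used. The authors deposited whole-number read counts per transcript, not normalized. Per the submitters' processing notes the tools were FastQC 0.10.1, BWA 0.70 and SAMtools 1.0, with no role stated for any. Sources used here do not state the reference sequences, the counting rule, the strand setting or how reads shared between copies were treated. Part of the labels' extraction text describes plants of another design and was not used.

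CPM for the member rule and all CPM printed used library totals. The 3-fold limits were applied with 0.1 added to each mean; on plain means 200 transcripts met them. Tests used edgeR 4.0.16 in R 4.3.3: filterByExpr (minimum count 10, minimum total 15) kept 42181 transcripts with 99.9% of counts, TMM scaling, and 1 quasi-likelihood fit of 13 group means to all libraries, with Benjamini-Hochberg adjustment over the transcripts tested. SE is the absolute log2 value divided by the square root of F. DESeq2 1.42.0 was an alternative. The edgeR step was run on simulated counts with the same spread for every transcript and no pairing of replicates. That run checked the code and does not show how the test behaves on these libraries. The labels call each pool a biological repeat.

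Same-numbered libraries deviated together at 1 h and 30 min (r 0.38, 0.40 and 0.70 for replicates 1 to 3). Replicate numbers therefore pair those groups. At 30 and 10 min they deviated together in replicates 2 and 3 (r 0.44 and 0.54) but not in replicate 1 (0.02). In each of the other 4 comparisons, 30 over 10 min among them, at least 1 pair was under 0.1. The main fit did not use replicate numbers, and counts from a fit with them as a block are given below. Members and comparisons were chosen with earlier results of these data known. The naming rule took the 2 highest ratios with separated 2 h libraries and the 2 largest called falls from 4 to 8 h. The second part gave none, and 2 falls at the end of darkness were named after seeing the values. Lists of named genes and cell type markers could not be used without gene names.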

Additional observations from a re-analysis of the deposited data

How the results depend on the processing

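The number of transcripts that met the limits, counted before the rule's cap of 200, was 475 with a ratio limit of 2 and 116 with a limit of 4. It was 182 with TMM-scaled CPM, 176 with 1 added to each mean, 194 without 4 h replicate 1 and 8 h replicate 2, and from 180 to 227 without 1 replicate number. All 182, 176 and 194 were among the 198. At 8 h over 4 h, 106 members were lower without both of those libraries, in place of 0, and from 0 to 9 with any 1 library or replicate number left out. The same settings gave from 10 to 25 members higher at 30 min over 10 min (30 with all libraries), from 1 to 58 higher at 112 h over 40 h (36) and from 0 to 4 lower (3), where fewer libraries entered each fit. They gave from 13 to 18 higher (19) and 65 to 93 lower (91) at the end of darkness, and from 128 to 163 higher at 1 h over 30 min (162). With the replicate number as a block, members higher numbered 41 at 30 min, 171 at 1 h and 51 at 112 h, with 4 lower at 112 h, 20 higher and 92 lower at the end of darkness, and 0 at 8 h over 4 h. That fit called 3.90%, 6.66% and 10.8% of all transcripts higher at 30 min, 1 h and 112 h, in place of 2.83%, 5.2% and 7.89%. It called 10.8% lower at 112 h, and 27.3% higher and 26.2% lower at the end of darkness. RLE scaling, library size only, no filter and DESeq2 kept every count of members within 1.5 times. Depth was not varied, and each comparison rests on 3 libraries a group.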

Other observations

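Non-member transcripts in rows directly beside a member were read for the same ratio. Of 280 such neighbours, 170 had a mean of at least 1 CPM. Their median ratio of the 2 h level to the highest of untreated leaves, the end of darkness and 16 h was 0.824, against 0.775 for all 35026 identifiers at that level. The ratio was at least 2 in 7 of them (4.12%), against 1.97% of those identifiers. The member rule itself removed the neighbours that met its limits, and those under 1 CPM were not read, so these shares are a description from which nothing is drawn.

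The library labelled 40 h replicate 2 had its highest correlation with a 64 h library (r 0.989), above its best value within 40 h (0.978). It was 1 of the 20 libraries whose closest match was in another group. Without it, 40 members were higher at 112 h over 40 h and 4 were lower, against 8.10% and 11.3% of all transcripts.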
